A study of Mus musculus with 6 samples.

Results

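The oocyte-expressed NLRP genes of the mouse other than Nlrp5 were Nlrp2, Nlrp4a, Nlrp4b, Nlrp4c, Nlrp4e, Nlrp4f, Nlrp9a, Nlrp9b, Nlrp9c and Nlrp14. They were taken by gene symbol from the deposited count table, where 10 of 25239 genes carry these symbols, and all 10 passed the filter on low counts. NLRP proteins share a nucleotide-binding NACHT domain and C-terminal leucine-rich repeats, most with an N-terminal pyrin domain, and are best known as sensors that assemble inflammasomes. A rodent-expanded branch of the family is instead transcribed mainly in oocytes, where its proteins are stored for the egg and early embryo. Nlrp5, also called Mater, is a core protein of the subcortical maternal complex, and mouse NLRP4F is a further component of that complex.

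Poly(A) RNA of fully grown oocytes had been sequenced as Smart-seq2 libraries, a full-length cDNA method for small RNA amounts. Wild-type (WT) females gave 3 libraries, and 3 came from females in which Gdf9-cre, expressed in oocytes, had deleted Nat10 (conditional knockout, cKO). NAT10 acetylates cytidine in RNA, and the question was which oocyte transcripts differ without it. All females had received PMSG, a gonadotropin that drives follicle growth, 36 to 48 h before collection; age and strain are not stated in the labels, and neither is whether the WT females carried cre or the floxed allele.

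Library totals lay between 20167665 and 29407659 counts, and a count of 0 allows up to 3 counts, or 0.102 to 0.149 CPM (counts scaled to the library total), for counting error only. The labels do not say whether libraries of 1 genotype came from separate animals, so each p-value reflects the variation among these 6 libraries, and that variation may be technical in part. Nat10 stood at 48.1, 45.01 and 64.5 CPM in WT and at 7.18, 7.65 and 7.99 CPM in cKO, and every cKO library lay below every WT library. The oocyte markers Gdf9 and Bmp15 were between 4165 and 8335 CPM in all 6 libraries and were not called. The 10 oocyte markers summed to 22144 to 26064 CPM in WT and 26244 to 27756 CPM in cKO. Of these markers 4 were called higher in cKO and 0 lower, beside 20.1% of all genes tested in each direction. The 12 granulosa and cumulus markers summed to 76.5 to 85.1 CPM in WT and 63.4 to 67.4 CPM in cKO. Among those 12, Cyp19a1 (32.5 to 39.7 CPM over the 6 libraries) and Cyp11a1 (13.7 to 19.7 CPM) were highest and were not called. Foxl2 and Amh were at 0 to 0.76 CPM. Inha (log2 change of -1.41) and Hsd3b1 (-1.46) were called lower in cKO, the latter no longer without WT replicate 1, WT replicate 2 or cKO replicate 1. The 7 theca and stroma markers summed to 3.21 to 5.03 CPM in WT and 2.40 to 3.67 CPM in cKO, with Acta2 called lower (0.41 to 1.36 CPM in WT, 0 to 0.14 CPM in cKO), no longer without WT replicate 1. The 8 immune markers summed to 2.54 to 4.71 CPM in WT and 5.12 to 7.28 CPM in cKO, without overlap, with Ptprc at or below 0.21 CPM. C1qa was called higher (0 to 0.37 CPM in WT, 0.63 to 2.74 CPM in cKO), no longer without cKO replicate 1 or with DESeq2. The part of these cells in the results below was not tested.

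Several family members are near-copies of each other, which limits what a count can say. Nlrp4f lies on chromosome 13 and the other 9 members on chromosome 7. Over the aligned coding sequence of GENCODE M21 transcripts, Nlrp4c and Nlrp4e were 93.9% identical, Nlrp9a and Nlrp9c 87.7%, and Nlrp9a and Nlrp9b 84.5%. Nlrp4b was the most distant of the Nlrp4 genes, at 78.5% to 79.4% identity to the other 4. Pairs from different subfamilies aligned at 65.3% to 70.4% identity, and the longest exact run that Nlrp2 or Nlrp14 shared with any other member was 15 bases. The longest exact coding runs within each subfamily are shown because a read that falls inside one of them cannot be assigned to 1 gene.
Nlrp4c and Nlrp4e, 120 bases, codons 41 to 80 of both (chr7:6060715-6060834, exon 2 of Nlrp4c; chr7:23301402-23301521, exon 1 of Nlrp4e; GRCm38, plus strand): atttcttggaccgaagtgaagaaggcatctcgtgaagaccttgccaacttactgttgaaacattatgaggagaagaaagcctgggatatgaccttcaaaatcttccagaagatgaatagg
Nlrp9a and Nlrp9b, 129 bases, codons 197 to 239 of both (chr7:26557547-26557675 and chr7:20023428-20023556, exon 3 of each; GRCm38, plus strand): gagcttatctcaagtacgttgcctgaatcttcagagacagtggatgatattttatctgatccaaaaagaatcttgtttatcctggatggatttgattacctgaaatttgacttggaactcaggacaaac

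**Figure D1:**
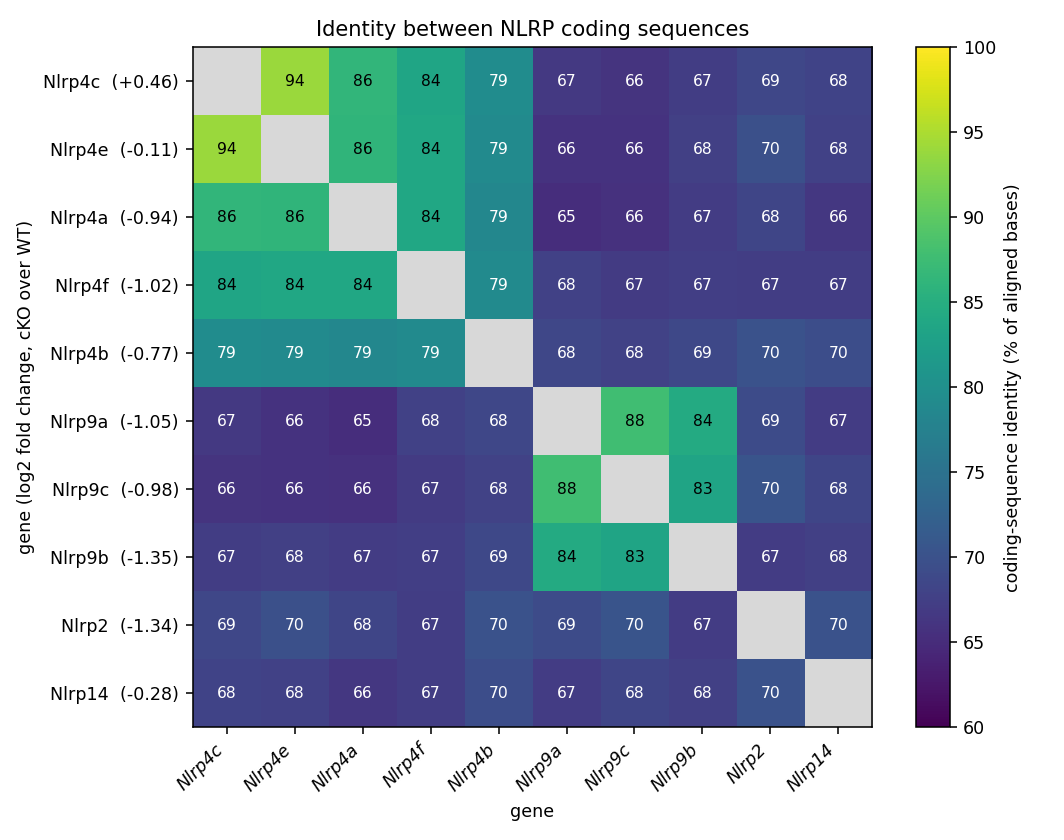
Coding-sequence identity, in percent of aligned bases, for each pair of the 10 NLRP genes, with the log2 fold change (cKO over WT) of each gene beside its name. The brightest cell is the Nlrp4c and Nlrp4e pair at 93.9%, and the Nlrp4 and the Nlrp9 genes form separate blocks.

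Over whole transcripts, Nlrp4e was by far the most exposed to shared reads. Of its 50-base windows 36.87% occurred exactly in another annotated gene, of its 100-base windows 11.54%, and of its 150-base windows 3.4%. Most of these matches were to the pseudogenes Gm16443, Gm4541, Gm8486, Gm8685 and Gm8728, and 8.28% of its 50-base windows matched Nlrp4c. Of these pseudogenes the count table holds Gm4541, at a mean of 4.08 CPM in WT and 3.39 CPM in cKO. Nlrp4c shared 11.89% of its 50-base windows, Nlrp4f 7.08%, Nlrp9a 6.54%, Nlrp9b 6.22%, Nlrp9c 4.99%, Nlrp4a 3.11% and Nlrp2 0.83%. Nlrp4b and Nlrp14 shared 0 windows at any of the lengths searched. At 100 bases each member other than Nlrp4e was at or below 1.36%, and at 150 bases each was at 0. How multi-mapping reads were counted and the read length of these libraries are not given in the sources used here, and the search covered annotated transcripts, not the genome. Values of Nlrp4e and Nlrp4c are therefore uncertain, and those of the Nlrp9 genes, Nlrp4a and Nlrp4f less so. Counted exons of the 10 members overlapped 0 other genes of the table.

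**Figure D2:**
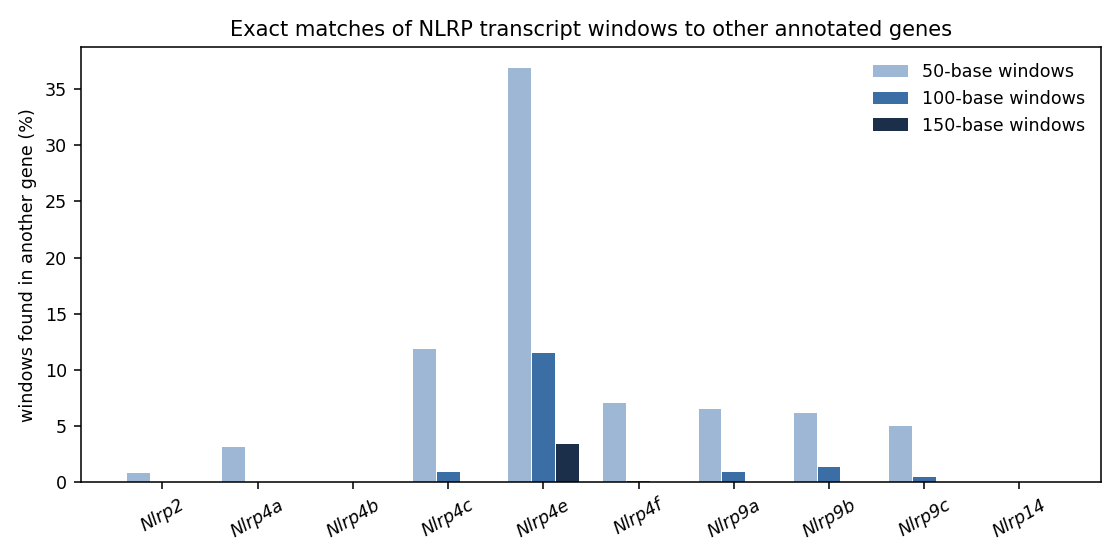
Percent of the 50-, 100- and 150-base windows of each member's transcript that occur exactly in a transcript of another gene. Nlrp4e stands highest at every length, and Nlrp4b and Nlrp14 are at 0.

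In WT oocytes the members spanned a wide range of levels. Per kilobase of exon, Nlrp14 was highest at 1498 ± 281 CPM (SD, n = 3), rank 29 of the 14114 genes tested, and Nlrp4f followed at 607 ± 84 CPM per kb, rank 101. Nlrp9b came next at 322 ± 48 CPM per kb. Nlrp4a (229 ± 31), Nlrp9a (229 ± 50), Nlrp9c (216 ± 26), Nlrp4b (213 ± 42) and Nlrp2 (181 ± 38 CPM per kb) had overlapping libraries and no order beyond their spread. Nlrp4e stood at 81.3 ± 5.2 CPM per kb and Nlrp4c at 9.46 ± 1.67 CPM per kb, rank 5553, so the least abundant member is also one whose close copy, Nlrp4e, is several times more abundant. In cKO Nlrp14 stood at rank 33, while Nlrp4f stood at rank 259 and Nlrp9b at rank 785.

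**Figure D3:**
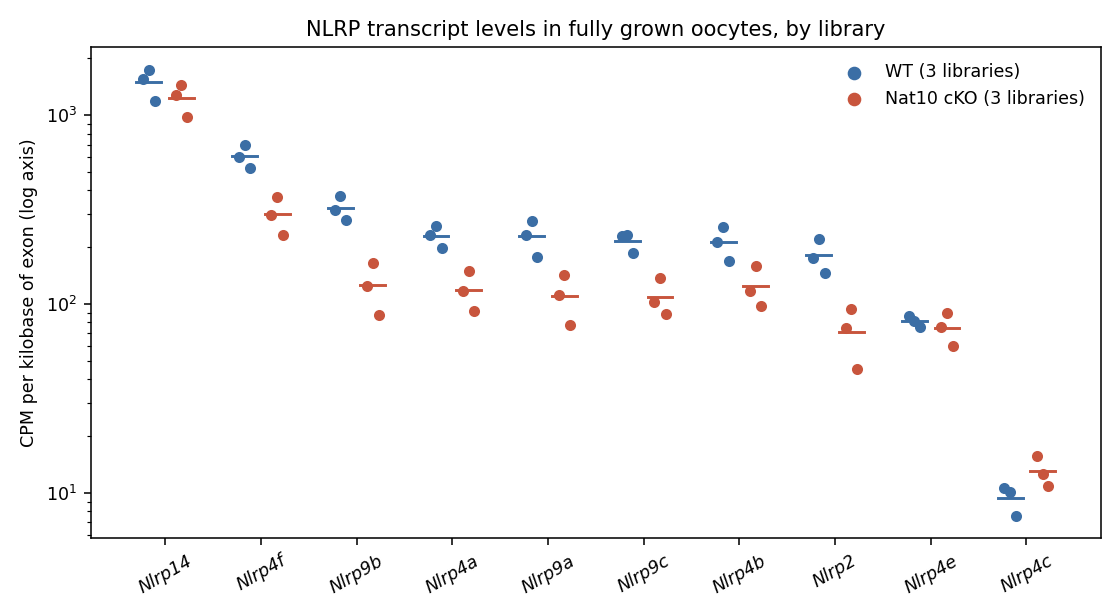
Level of each member in each of the 6 libraries in CPM per kilobase of exon on a log axis, with bars at the mean of 3 libraries. The WT and cKO points separate for 8 of 10 genes and overlap for Nlrp14 and Nlrp4e. Nlrp4c is the member whose cKO points lie above WT.

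In cKO oocytes most of the family was lower. Of the 10 members 7 fell, 0 rose and 3 were not called in edgeR's quasi-likelihood test at an adjusted p under 0.05, with a median log2 fold change of -0.96. Over all genes tested 20.1% were called lower, 20.1% higher and 40.2% in either direction, and the median was 0.01. The 7 that fell were Nlrp2, Nlrp4a, Nlrp4b, Nlrp4f and the 3 Nlrp9 genes, and each stayed called lower under all 16 alternatives, with an adjusted p of at most 0.0256. WT and cKO libraries did not overlap for these 7, lower in cKO, which 26% of all genes tested show, and did not overlap for Nlrp4c, higher in cKO, which also holds for 26%. In these bulk libraries fewer oocytes with a transcript and less transcript per oocyte cannot be told apart. The share of reads from ERCC spike-in RNA was 0.25% to 0.32% in WT and 0.34% to 0.43% in cKO. Scaling by it moved the median of all genes to -0.39 and that of the members to -1.38. Under that scaling 9 of the 10 members were called lower, beside 34.2% of all genes.

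The Nlrp9 genes fell as a group of 3. Mouse NLRP9B is known from intestinal epithelium as part of an inflammasome that responds to viral RNA, and all 3 paralogs are transcribed in oocytes. Nlrp9b (chr7:20008023-20062938, plus strand, mm10) stood at 1049, 1250 and 929 CPM in WT and at 418, 554 and 293 CPM in cKO. Every cKO library was below every WT library, and the cKO mean was 39.2% of WT. On the log2 scale it fell by 1.35 ± 0.19 (SE; edgeR adjusted p = 0.000173).

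Nlrp9a (chr7:26535023-26574146, plus strand) stood at 778, 922 and 592 CPM in WT and at 374, 473 and 260 CPM in cKO, or 48.3% of WT (log2 -1.05 ± 0.20, SE; edgeR adjusted p = 0.00123). Nlrp9c (chr7:26364691-26403700, minus strand) stood at 757, 758 and 613 CPM in WT and at 337, 448 and 291 CPM in cKO, or 50.6% of WT (log2 -0.98 ± 0.15, SE; edgeR adjusted p = 0.000361). In both genes the lowest WT library exceeded the highest cKO library. The Nlrp9 genes together summed to 2583, 2930 and 2134 CPM in WT and to 1130, 1476 and 844 CPM in cKO. If each read shared within the trio was counted once, this sum does not depend on how such reads were divided between its members. Whether they were counted so is not known.

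Within a library the ratio of paralogs does not depend on library scaling. The log2 ratio of Nlrp9b to Nlrp9c, per kilobase, was 0.44, 0.69 and 0.57 in WT and 0.28, 0.28 and -0.02 in cKO. The mean of these log2 ratios thus differed by -0.39 between cKO and WT, with no overlap between the groups. The exact two-sided permutation test over 20 assignments gave p = 0.1, the smallest this design can give (0.108 after Benjamini-Hochberg adjustment over 13 paralog pairs). The ratio of Nlrp9a to Nlrp9c, the closer pair in sequence, moved by -0.07 with overlapping groups (exact permutation p = 0.6), and turned to 0.027 without WT replicate 2 and to 0.024 without cKO replicate 3.

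The Nlrp4 genes split. Nlrp4f (chr13:65177111-65205716, minus strand), the second most abundant member, stood at 2129, 2443 and 1851 CPM in WT and at 1042, 1304 and 818 CPM in cKO. Its cKO libraries all lay below its WT libraries, at 49.3% of the WT mean (log2 -1.02 ± 0.16, SE; edgeR adjusted p = 0.000319). Of its 50-base windows 4.63% match Nlrp4g on chromosome 9, a paralog at only 0.32 to 5.80 CPM that was itself called lower (log2 -2.08 ± 0.48).

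Nlrp4a (chr7:26435113-26476142, plus strand) stood at 993, 1112 and 847 CPM in WT and at 501, 644 and 395 CPM in cKO (log2 -0.94 ± 0.16, SE; edgeR adjusted p = 0.000681). Nlrp4b (chr7:10687793-10730167, plus strand), which shares no 50-base window with any other annotated gene, stood at 705, 847 and 565 CPM in WT and at 391, 529 and 325 CPM in cKO (log2 -0.77 ± 0.18; edgeR adjusted p = 0.00438). The cKO means were 52.2% and 58.8% of WT, without overlap of libraries in either gene. The log2 ratio of Nlrp4a to Nlrp4f, per kilobase, varied little within a genotype, at -1.38, -1.42 and -1.41 in WT and -1.34, -1.30 and -1.33 in cKO. It was higher in all 3 cKO libraries than in any WT library, by 0.08 on average (exact permutation p = 0.1, the smallest possible).

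Nlrp4e and Nlrp4c, the closest pair in sequence, were not called. Nlrp4e (chr7:23301192-23362277, plus strand), which preimplantation mouse embryos were reported to need, stood at 293, 275 and 257 CPM in WT and at 256, 303 and 204 CPM in cKO. The groups overlapped, and the log2 fold change was -0.11, with a 95% interval of -0.42 to 0.19 and edgeR's adjusted p was 0.549. Its sign turned to 0.025 without cKO replicate 3, and with spike-in scaling it was called lower (-0.52, edgeR adjusted p = 0.0398). Nlrp4c (chr7:6045161-6105149, plus strand) stood at 38.5, 36.8 and 27.3 CPM in WT and at 56.5, 45.6 and 39.2 CPM in cKO, so that all 3 cKO libraries were above WT. Its log2 fold change was 0.46 ± 0.18 (SE), with an edgeR adjusted p of 0.0603, and 7 of 16 alternatives called it higher, among them the fit without cKO replicate 3 (0.58, edgeR adjusted p = 0.0347).

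Ratios of these genes to their paralogs were also taken within each library. The log2 ratio of Nlrp4e to Nlrp4f was -2.80, -3.09 and -2.79 in WT and -1.97, -2.05 and -1.94 in cKO, a difference of 0.91. The ratio of Nlrp4a to Nlrp4e differed by -0.83 and that of Nlrp4c to Nlrp4e by 0.59. All 3 ratios had no overlap between genotypes, with the exact permutation p at 0.1, its smallest value. The same holds for 12 of the 13 paralog pairs, pairs of genes that fell among them, so this test does not set any pair apart. As Nlrp4e shares windows with pseudogenes and with Nlrp4c, the share of its counts that came from other loci was not tested.

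Nlrp14 and Nlrp2 stand outside these subfamilies. Nlrp14 (chr7:107166990-107198103, plus strand), whose maternal loss arrests mouse embryos early, stood at 5116, 5725 and 3912 CPM in WT and at 4187, 4738 and 3235 CPM in cKO. The groups overlapped, since WT replicate 3 lay below cKO replicates 1 and 2. The log2 fold change was -0.28, with a 95% interval of -0.61 to 0.05 and edgeR's adjusted p was 0.168. Without WT replicate 3 it was called lower (-0.42, edgeR adjusted p = 0.032), as it was with spike-in scaling (-0.70, 0.0046). Nlrp2 (chr7:5298547-5351035, minus strand), a maternal-effect gene of early mouse development, stood at 595, 758 and 500 CPM in WT and at 254, 322 and 154 CPM in cKO. All cKO libraries lay below WT, at 39.4% of the WT mean (log2 -1.34 ± 0.22, SE; edgeR adjusted p = 0.000506).

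**Figure D4:**
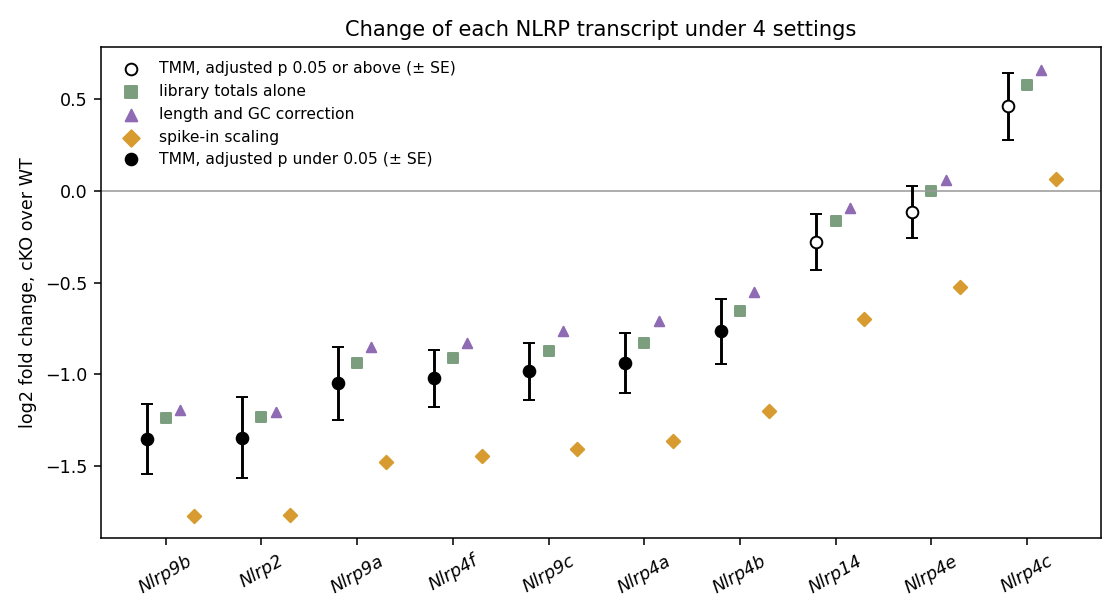
Log2 fold change (cKO over WT) of each member with its standard error after TMM scaling (circles, filled where the adjusted p was under 0.05), with the value after library totals alone, length and GC correction, and spike-in scaling. Nlrp9b and Nlrp2 lie lowest at -1.35 and -1.34, and spike-in scaling lies lowest for every member.

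The makeup of the family's RNA shifted with these differences. The 10 members summed to 12452, 14126 and 10092 CPM in WT and to 7817, 9361 and 6015 CPM in cKO. Nlrp14 made up 38.8% to 41.1% of that sum in WT and 50.6% to 53.8% in cKO. Without Nlrp14 the sum was 7336, 8401 and 6180 CPM in WT and 3630, 4623 and 2780 CPM in cKO. The groups did not overlap for any of these measures.

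The members also followed one another between libraries of 1 genotype. WT replicate 3 was the lowest WT library for 10 of 10 members and for 41.0% of all genes tested, and cKO replicate 3 was the lowest cKO library for 10 of 10 members and for 36.3% of all genes. WT replicate 2 was the highest WT library for 8 of 10 members and 34.4% of all genes, and cKO replicate 2 the highest cKO library for 9 of 10 members and 33.9%. The lowest library was thus replicate 3 in called and uncalled members alike, including Nlrp14 and Nlrp4b, which share no windows. The highest WT library was replicate 1 for Nlrp4c and Nlrp4e, and the highest cKO library was replicate 1 for Nlrp4c. Among the 7 genes of the subcortical maternal complex and cytoplasmic lattice list no library was lowest for more than 3. Nlrp5, which is in that list, had the order of most members, with replicate 2 highest and replicate 3 lowest in both genotypes. The labels give no batch for these libraries.

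**Figure D5:**
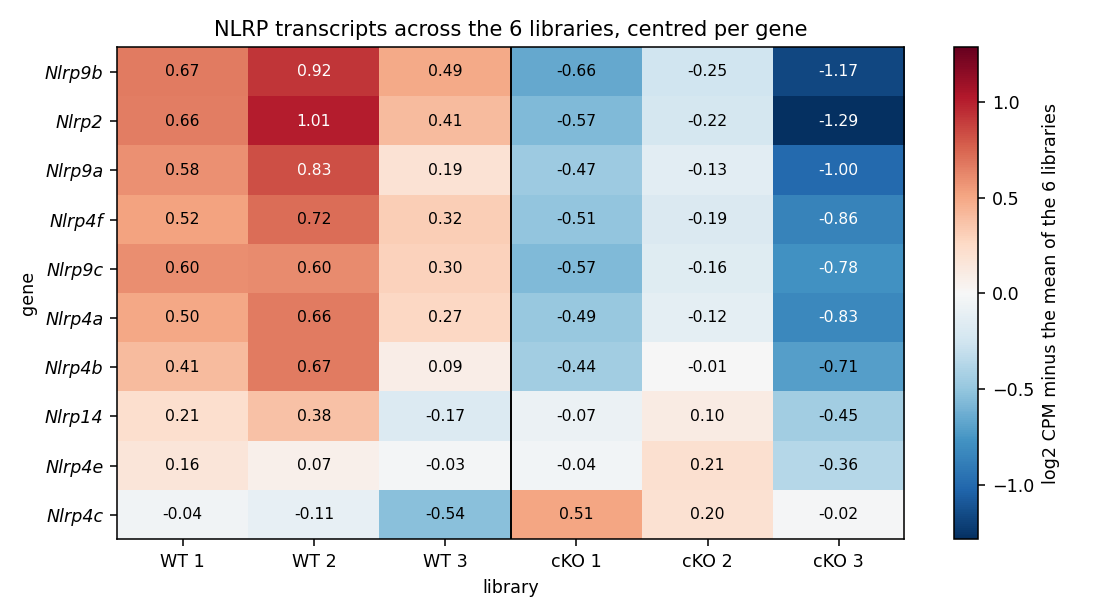
Log2 CPM of each member in each library, minus the mean of that gene over the 6 libraries. Within WT the lowest value of every gene is in replicate 3, and within cKO it is again in replicate 3, where Nlrp2 reaches -1.29.

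By the same centred values, the genes outside the family whose profile lay nearest to the mean profile of the members were Zfp229, AW146154, Usp15, Patl2 and Mllt11. They were chosen from 7952 genes with a mean of at least 10 CPM, at Euclidean distances of 0.13 to 0.16 on the log2 scale over 6 libraries. Since they were chosen for that likeness, their levels are a description. Patl2, an RNA-binding protein gene of oocytes, stood at 136, 165 and 116 CPM in WT and at 87.7, 95.6 and 66.4 CPM in cKO. Usp15, a deubiquitinase gene, stood at 538, 631 and 468 CPM in WT and at 356, 422 and 270 CPM in cKO. Both have their lowest library in replicate 3 of each genotype, as the members do.

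Promoter windows from RefSeq (GRCm38.p6, 250 bases before to 50 after the annotated start) matched 9 of the 10 members; Nlrp14 was not matched. The windows shown are those of Nlrp9a and Nlrp9c, which were 96.4% identical over 253 aligned bases and both fell, and those of Nlrp4a, Nlrp4b and Nlrp4c. Nlrp4a and Nlrp4b fell, while Nlrp4c was not called lower. The first window of Nlrp4a, not shown, was 75.1% identical to that of Nlrp4b and 66.8% to that of Nlrp4c. Both values lie within the range of window pairs from different subfamilies, 63.2% (Nlrp4c and Nlrp9b) to 75.7% (Nlrp2 and Nlrp4c). For the second window of Nlrp4a, which is shown, identity was not computed. Capitals mark CAGCTG, a form of the E-box, and CCAAT, each searched on both strands, where the reverse strand of the latter reads ATTGG.
Nlrp9a (chr7:26534773-26535072, plus strand): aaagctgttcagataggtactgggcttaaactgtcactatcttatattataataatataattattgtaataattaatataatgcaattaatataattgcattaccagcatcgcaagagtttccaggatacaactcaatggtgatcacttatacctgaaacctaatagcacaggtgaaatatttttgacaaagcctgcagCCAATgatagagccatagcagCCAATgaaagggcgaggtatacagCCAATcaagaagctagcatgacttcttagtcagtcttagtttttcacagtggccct
Nlrp9c (chr7:26403651-26403950, minus strand): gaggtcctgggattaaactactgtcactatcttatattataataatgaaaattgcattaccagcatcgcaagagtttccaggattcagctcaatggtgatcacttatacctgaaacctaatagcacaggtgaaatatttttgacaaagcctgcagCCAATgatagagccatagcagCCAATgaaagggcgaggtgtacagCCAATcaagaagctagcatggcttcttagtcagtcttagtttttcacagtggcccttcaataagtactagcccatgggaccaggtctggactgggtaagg
Nlrp4a, the second of its annotated starts (chr7:26435364-26435663, plus strand): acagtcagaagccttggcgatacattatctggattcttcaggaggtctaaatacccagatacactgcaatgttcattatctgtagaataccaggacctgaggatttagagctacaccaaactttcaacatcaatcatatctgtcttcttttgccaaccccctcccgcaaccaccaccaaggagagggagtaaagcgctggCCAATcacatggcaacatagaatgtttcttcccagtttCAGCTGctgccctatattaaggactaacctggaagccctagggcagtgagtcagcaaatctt
Nlrp4b, the first of its annotated starts (chr7:10687543-10687842, plus strand): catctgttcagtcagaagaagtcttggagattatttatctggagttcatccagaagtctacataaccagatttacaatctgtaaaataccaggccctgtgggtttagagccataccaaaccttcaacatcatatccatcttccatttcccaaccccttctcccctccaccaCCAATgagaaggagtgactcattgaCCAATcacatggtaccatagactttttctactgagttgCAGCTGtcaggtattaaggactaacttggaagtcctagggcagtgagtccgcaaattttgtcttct
Nlrp4c (chr7:6044911-6045210, plus strand): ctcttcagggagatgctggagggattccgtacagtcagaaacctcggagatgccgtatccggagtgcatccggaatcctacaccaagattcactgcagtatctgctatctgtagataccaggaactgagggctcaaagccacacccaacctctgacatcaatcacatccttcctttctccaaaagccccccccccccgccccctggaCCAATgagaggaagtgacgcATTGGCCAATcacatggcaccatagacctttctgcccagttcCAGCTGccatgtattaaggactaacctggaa

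Every window of the 5 Nlrp4 genes held CAGCTG, whereas those of Nlrp2, Nlrp9a, Nlrp9b and Nlrp9c did not; of 32841 mouse promoter windows of the same length 16.3% hold it. CCAAT was found in 37.42% of all windows. Nlrp9a, Nlrp9c and Nlrp4c held it 3 times each, and Nlrp9b and Nlrp4f held it 0 times. The first window of Nlrp4a held it 0 times and the second 1 time. The windows of Nlrp4b and Nlrp4c were 79.9% identical over 259 bases and held both motifs in the same order. Nlrp4b fell (log2 -0.77), while Nlrp4c was not called (0.46). Each motif occurred in windows of members that fell and of members that were not called. The windows do not all cover matching parts, since that of Nlrp4f begins with a stretch like the end of the Nlrp4a window shown. A part of these motifs in the changes was not tested. These matches describe letters in the windows and are not sites of binding.

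The transcripts of the family share a low GC content. The 10 members lay between 39.0% and 44.7% GC, below the median of 50.0% over tested genes with a coding sequence. Codons ending in C, where N4-acetylcytidine has been studied at the wobble position, made up 19.1% to 26.4% of their coding sequences, below the median of 29.56%. In C-ending codons the members that fell lay between 19.1% (Nlrp9c) and 25.7% (Nlrp2). Members not called lay between 20.5% (Nlrp14) and 26.4% (Nlrp4c), so the ranges overlapped. A relation of codon content to the changes was not tested. Transcript lengths ran from 3216 to 4259 bases, above the median of 2918.5. After correction for length and GC content the median of the members was -0.74, and the 7 genes stayed lower.

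Genes that act with or beside this family were called in both directions. Of 7 genes of the subcortical maternal complex and the cytoplasmic lattices, 1 fell and 2 rose, with a median of -0.15. Over all genes tested 20.1% were called lower, 20.1% higher and 40.2% in either direction. Nlrp5 stood at 1407, 1904 and 1313 CPM in WT and at 990, 1265 and 811 CPM in cKO (log2 -0.59 ± 0.17, SE; edgeR adjusted p = 0.0132). The call ended without WT replicate 2 (edgeR adjusted p = 0.0789), cKO replicate 1 (0.0536) or cKO replicate 3 (0.0559). Padi6, needed for the lattices, rose by 0.36 and Zbed3 by 0.46 on the log2 scale, calls that ended with spike-in scaling (-0.045 and 0.076). The call of Padi6 also ended without cKO replicate 1, and that of Zbed3 without WT replicate 1, WT replicate 2 or cKO replicate 3. Ooep (-0.27), Tle6 (-0.15), Khdc3 (0.37) and Uhrf1 (-0.20) were not called, and without WT replicate 3 Ooep was called lower and Khdc3 higher. The difference between these genes and the NLRP members was not tested.

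Of 17 NLR genes known from immunity, 6 were abundant enough to test, of which 1 rose and 2 fell. The share over all genes tested was 20.1% in each direction. Nod2, a sensor of bacterial peptides, fell from 10.3, 14.4 and 16.2 CPM to 3.34, 3.72 and 3.67 CPM (log2 -1.93 ± 0.24, SE). Nlrc3 rose by 2.62 on the log2 scale from a WT level under 1 CPM. Naip1, a sensor of the NLRC4 inflammasome, was the most abundant of these, at 62.5, 66.8 and 44.1 CPM in WT and 31.1, 47.0 and 24.5 CPM in cKO, with overlapping libraries. It was called lower (-0.76), a call that ended with the length and GC correction and without WT replicate 1, WT replicate 2, cKO replicate 1 or cKO replicate 3. Nlrc4 itself stood at 16.6 to 21.9 CPM in WT and 15.3 to 19.5 CPM in cKO and was not called. Nlrp3, the best known inflammasome sensor, had 0 counts in WT and at most 0.63 CPM in cKO, below the filter. Of 6 inflammasome adaptors and effectors 3 were tested and 1 rose, the cytokine gene Il18, at 1.48 to 1.57 CPM in WT and 3.26 to 3.92 CPM in cKO, a call that ended with spike-in scaling.

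Genes next to the members went both ways. Within 100 kb of a member lay 42 other genes of the table, of which 20 had no count and 13 were tested. Several Vmn1r symbols among those without a count carry the same span, so some loci are counted more than once. Of those tested 5 were higher and 3 lower, beside 20.1% of all genes tested in each direction. Gm5065, a predicted gene on the other strand whose span overlaps the start of Nlrp2 without overlap of annotated exons, fell from 110, 102 and 77.3 CPM to 41.4, 56.3 and 41.7 CPM (log2 -1.05 ± 0.17, SE). Nlrp5, beside Nlrp4e, was another that fell. Zfp787 rose by 2.53 and Igsf23 by 0.58 on the log2 scale, the latter no longer called with spike-in scaling.

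Transcription factors of oocytes were also compared, among them FIGLA, which acts on E-boxes of zona pellucida gene promoters. Of 8 tested, 4 rose and 0 fell, with a median log2 fold change of 0.38. Over all genes tested the share called was 20.1% in each direction. Taf4b rose by 0.87 and Figla by 0.54 on the log2 scale, from 39.9 to 58.1 CPM on average for Figla, whose call ended without cKO replicate 1 and with the length and GC correction (0.30). Nobox (0.37) lost its call in the same alternatives (0.22 with the correction). Lhx8 (0.39) lost its call without cKO replicate 1 as well, and also without WT replicate 1 or 2. None of the 4 was called higher with spike-in scaling.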

How the data were processed

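Raw gene counts of 3 WT and 3 cKO libraries were deposited by the authors. The mm10 build, STAR 2.7.10a, featureCounts and Trim Galore 0.6.7 are named in the submitters' processing notes. Multi-mapping, overlap and strand settings are not given in the sources used here. A second deposited table holds fractions of reads mapped and from ERCC spike-in RNA, whose denominator was taken as all reads. Smart-seq2, per the labels' protocols, carries no molecular identifiers and no strand.

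The counts of 25239 genes were fitted with edgeR 4.0.16 in R 4.3.3 (TMM, filterByExpr with a minimum count of 10, 14114 genes tested, quasi-likelihood F test of genotype without a block, two-sided, Benjamini-Hochberg over all genes tested, 0.05). CPM use TMM-scaled totals. The standard error is the log2 change divided by the square root of F. The pairing of replicate numbers was checked by correlating deviations from the group means. Paralog ratios used counts plus 0.5 per kilobase. Alternatives used limma 3.58.1, DESeq2 1.42.0 and mgcv 1.9.3. The edgeR fit and the permutation test were tested on simulated data. Shared windows and identities came from GENCODE M21 transcripts (Biopython 1.88) and promoters from RefSeq. Protein sequences were not used here.

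The members and lists were chosen with earlier results of these data known. Named were all members, Nat10, the maternal complex list, called genes of the other lists (at most 4 each) and the 5 nearest profiles. Beside them Nlrp3, Nlrc4, C1qa, Acta2, Gm4541, Nlrp4g, Foxl2, Amh, Cyp19a1, Cyp11a1, Ptprc, Gdf9, Bmp15, Inha and Hsd3b1 were named.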

Additional observations from a re-analysis of the deposited data

How the results depend on the processing

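The 7 members that fell stayed called lower under all 16 alternatives. The number of members called lower was 9 with spike-in scaling, 8 with the replicate block and without WT replicate 3, and 7 under the others. The number called higher was 0, or 1 (Nlrp4c) with library totals alone, no filter, the replicate block, DESeq2, the length and GC correction and that correction with the block. Leaving out single libraries gave 0 to 1 called higher and 7 to 8 called lower. Over all genes tested, deviations from the group means correlated at -0.02, 0.06 and 0.11 between same-numbered libraries. Between differently numbered ones they correlated at -0.11 to 0.06. Replicate 3 was nevertheless the lowest library of both genotypes for 10 of 10 members. Whether the replicate numbers pair the libraries is therefore not settled. Under the replicate block Nlrp14 had a change of -0.28 with an edgeR adjusted p of 0.0129.

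Signs turned for Nlrp4e with the length and GC correction, with or without the block (0.060), and without cKO replicate 3 (0.025, in a range from -0.23 over libraries left out), for Khdc3 with spike-in scaling (-0.022) and the length and GC correction, with or without the block (-0.090), for Nobox and Padi6 with spike-in scaling (-0.028 and -0.045) and for Uhrf1 without WT replicate 3 (0.0032, in a range from -0.37). The cause was not tested. The log2 ratio of Nlrp9a to Nlrp9c ranged from -0.14 to 0.027 when single libraries were left out, with 0.027 without WT replicate 2 and 0.024 without cKO replicate 3, and the other 12 ratios kept their sign.

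In the maternal complex list spike-in scaling gave 4 lower and 0 higher, the replicate block and limma-voom 2 lower, and the length and GC correction, with or without the block, 3 lower, against 0 to 2 lower and 1 to 3 higher when single libraries were left out. Among oocyte transcription factors spike-in scaling gave 1 lower and 0 higher, and leaving out libraries 1 to 4 higher. Among other NLR genes no filter and DESeq2 gave 2 higher and the length and GC correction 1 lower, with 1 to 2 in each direction when libraries were left out. Of 811 outcomes of single alternatives, 707 kept direction and side of the threshold. With 3 libraries per genotype a within-library ratio cannot reach an exact p under 0.1, and Nlrp4c, at 536 to 1693 counts, is the least deeply covered member.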
